A study of Mus musculus with 21 samples.

Results

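Met encodes a receptor tyrosine kinase whose ligand is hepatocyte growth factor, the product of Hgf. Its signal on the array was followed across 7 groups of sorted mouse monocytes and macrophages, with 3 arrays each and 21 arrays in all. Met is 1 of 18194 genes that have a probe set of their own, and its 2 probe sets are among 34958 that name a single gene. A probe set is a group of short oligonucleotides that together measure 1 transcript. The gene was chosen by its measured signal, high in bone marrow monocytes and at the floor in resident macrophages. Its levels in those groups are therefore given as a description with no test.

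Background on the receptor is as follows. Hepatocyte growth factor is secreted as an inactive chain and is cut by serine proteases before it can bind. Binding lets the receptor phosphorylate itself and recruit the docking protein Gab1, from which the Ras, phosphoinositide kinase and Stat3 routes run. The receptor is best known in epithelia and hepatocytes, where it drives growth, scattering and repair, and it has also been described in myeloid cells.

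All cells came from female C57BL/6 mice aged 7 to 8 weeks, with no genetic change named in the labels. Zymosan, a yeast wall preparation that causes a self-limiting peritonitis, was injected into the peritoneal cavity, and cells were recovered by lavage. The 4 h group held Ly-6B+ Ly-6G- monocytes, and the 18 h group held Ly-6B+ or Ly-6B low, Ly-6G- cells called monocyte/macrophages. The 72 h group held F4/80+ CD11b+ macrophages. At 168 h there were 2 groups, Ly-6B+ macrophages with medium to high F4/80 and Ly-6B- macrophages with high F4/80. Naive mice gave resident macrophages of the peritoneum, with high F4/80 and high CD11b, and bone marrow Ly-6B+ Ly-6G- monocytes, flushed from the bones with the red cells then lysed. The markers used to sort differed between the groups, and the labels call the 3 samples of each group biological replicates without saying whether animals were pooled.

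The 250 bases before the start of Met are shown because the gene's transcript level is what the groups differ in. They lie at chr6:17463707-17463956 of build GRCm38.p6, on the plus strand, and come from RefSeq. Capitals mark an AP-1 motif (TGANTCA), an E-box (CACGTG) and GC boxes (GGGCGG or its reverse complement CCGCCC), searched on both strands and chosen after the sequence was seen.
Met: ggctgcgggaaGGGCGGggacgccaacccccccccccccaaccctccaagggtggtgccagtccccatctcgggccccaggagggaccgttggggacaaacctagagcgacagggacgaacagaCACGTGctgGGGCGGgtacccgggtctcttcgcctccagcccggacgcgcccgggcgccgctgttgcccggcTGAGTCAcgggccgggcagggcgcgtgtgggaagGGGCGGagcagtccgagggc
The window held 74.0% G or C, against a median of 52.4% over all 32851 promoter windows of that length, and 24 CpG dinucleotides, against a median of 6.00. The AP-1 motif began 54 bases before the start and was held by 6.75% of all windows. The E-box, 126 bases before the start, was held by 6.02%. The GC box occurred 3 times, 239, 117 and 20 bases before the start, and 32.7% of windows held at least 1. No 2 of these motifs overlapped. A match of letters is a description and shows no binding.

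Met was high in bone marrow monocytes and in monocytes recovered from the peritoneum at 4 h, whose arrays overlapped. It was far lower in the 18 h cells, and at the floor of the array in 72 h macrophages and in resident macrophages. Values are MAS5 signals, intensities on a linear scale, with the same trimmed mean of 500.0 in every array. The probe set with the higher mean, 1434447_at, gave 4600.4, 4103 and 3935 in the bone marrow arrays and 4127, 3856 and 4142 in the 4 h arrays. The 18 h arrays gave 316, 231 and 297. The 6 bone marrow and 4 h arrays lay within 1 range, and all 3 of the 18 h arrays lay far below it.

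Signals in the later groups were lower still. The 72 h arrays gave 4.72, 3.93 and 2.33. At 168 h the Ly-6B+ arrays gave 47.6, 34.5 and 5.52, and the Ly-6B- arrays gave 4.94, 5.33 and 8.83. Resident macrophages gave 1.96, 3.11 and 1.40. These 12 arrays were all under 80.6, the median of every value in the table. The higher values among them were those of 2 of the 3 arrays of Ly-6B+ cells at 168 h.

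The group means of Met (± SD, n = 3 each) were 4213 ± 346 for bone marrow, 4042 ± 161 for the 4 h cells, 281 ± 44.2 for the 18 h cells and 3.66 ± 1.22 for the 72 h cells. The 168 h means were 29.2 ± 21.5 for Ly-6B+ and 6.37 ± 2.14 for Ly-6B- macrophages, and the resident mean was 2.15 ± 0.872. The 18 h mean was 6.96% of the 4 h mean. From highest to lowest the order was bone marrow, 4 h, 18 h, 168 h Ly-6B+, 168 h Ly-6B-, 72 h and resident. Neighbours whose arrays overlapped were bone marrow with 4 h, 168 h Ly-6B+ with 168 h Ly-6B-, and 72 h with resident.

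The other probe set, 1422990_at, was dim throughout. Its signals were 131, 70.9 and 45.0 in the bone marrow arrays, and 118, 80.1 and 24.3 in the 4 h arrays. It averaged 6.48 ± 0.980 at 18 h, 5.96 ± 0.934 at 72 h and 5.30 ± 2.05 in Ly-6B+ cells at 168 h (SD, n = 3 each). Ly-6B- cells at 168 h averaged 18.0 ± 21.2, with 1 array at 42.2 and the others at 9.02 and 2.82, and resident cells averaged 6.51 ± 0.866. Both probe sets thus placed bone marrow and 4 h above 18 h, and only 1434447_at separated 18 h from the later groups. The dim probe set did not pass the filter on low signals used for the tests, and Pearson's r between the probe sets was 0.80 over the 21 arrays, which share their scaling.

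**Figure D1:**
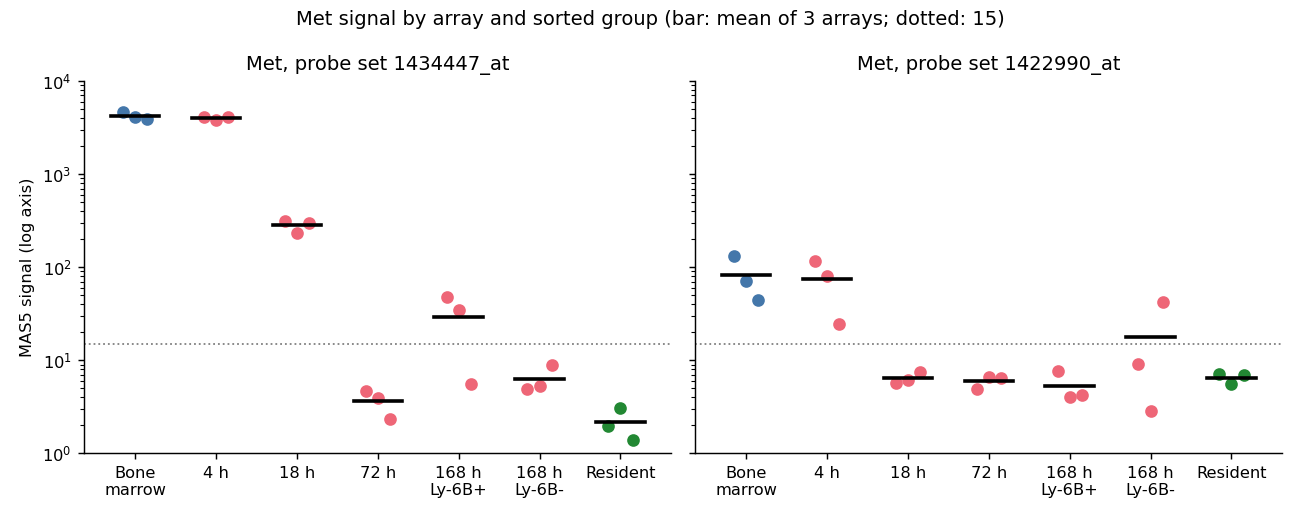
MAS5 signal of Met (log axis) in each of the 3 arrays of the 7 groups, 1 panel a probe set, with the group mean as a bar and a dotted line at a signal of 15. In 1434447_at the bone marrow and 4 h arrays lie between 3856 and 4600.4, the 18 h arrays between 231 and 316 and the 72 h arrays between 2.33 and 4.72.

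Differences between zymosan groups, none of which had been used to choose the gene, were tested. Tests were made on log2(signal + 15) with limma across all 12169 genes with a signal above the table's median in at least 3 arrays. Met passed that filter through the bone marrow, 4 h and 18 h arrays, where it is high. Calls required an adjusted p (Benjamini-Hochberg, over all of these genes) under 0.05 and a log2 fold change of at least 1 in size. Because 15 is added, fold changes of groups near the floor are understated.

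At 18 h Met was 13.8-fold lower than at 4 h on this scale. The log2 change was -3.79 (95% interval -4.38 to -3.19, SE 0.28), with a limma adjusted p of 2.00e-09, and all 3 of the 18 h arrays were below all 3 of the 4 h arrays. It was the 12th lowest change of the 12169 genes, of which 4.56% were called lower and whose median change was 0.14. The call held in all 18 alternative settings, with a smaller change in the mean of both probe sets (-2.83) and in the dim probe set alone (-1.88).

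At 72 h Met was a further 15.8-fold lower than at 18 h on this scale. The log2 change was -3.98 (95% interval -4.58 to -3.38, SE 0.28), with a limma adjusted p of 1.23e-09, and no arrays overlapped. This was the 5th lowest change of the 12169 genes, of which 3.46% were called lower. The call held with other added values, but its size depended on them, since all 3 of the 72 h arrays were under 15. The log2 change was -5.94 with 1 added, -2.41 with 60 added and -2.01 in the mean of both probe sets. In the dim probe set 1422990_at, already under 15 in every 18 h array, the 72 h and 18 h groups differed by -0.04 on the log2 scale (adjusted p = 0.976).

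**Figure D2:**
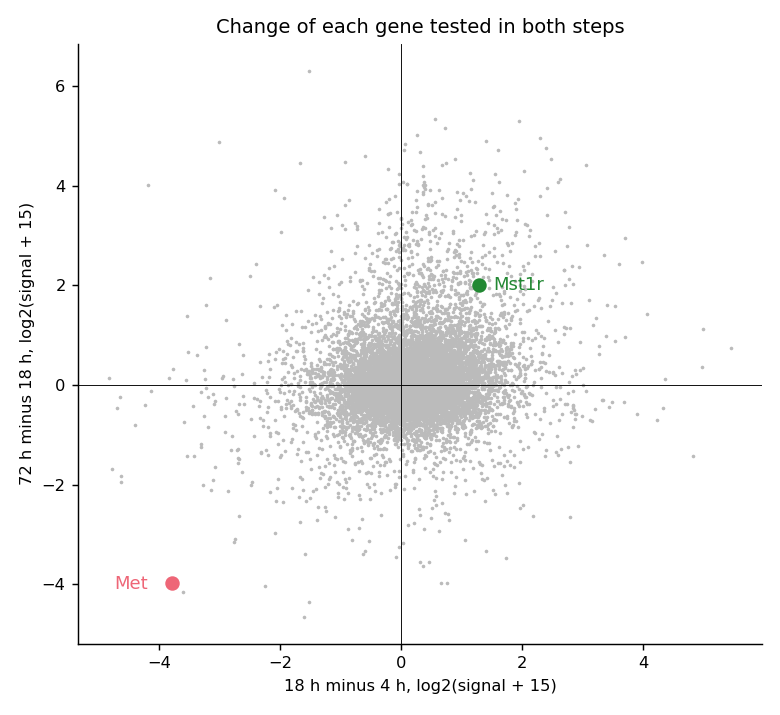
Each grey point is 1 of 12169 genes tested, with the log2 change of 18 h against 4 h on the horizontal axis and of 72 h against 18 h on the vertical axis, both on log2(signal + 15). Met lies at -3.79 and -3.98, and its relative Mst1r at 1.29 and 2.01; the axes share the 18 h arrays.

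At 168 h the differences were small and near the floor. Ly-6B+ cells exceeded 72 h macrophages by 1.10 on the log2 scale (95% interval 0.50 to 1.70), with a limma adjusted p of 0.0208, where 0.674% of genes were called higher. That call was lost without Ly-6B+ replicate 1 (0.77, adjusted p = 0.144), without Ly-6B+ replicate 2 (0.94, adjusted p = 0.110), without 72 h replicate 2 (1.11, adjusted p = 0.0536) and without 72 h replicate 3 (1.05, adjusted p = 0.0801). Ly-6B- cells differed from 72 h macrophages by 0.19 (95% interval -0.40 to 0.79, adjusted p = 0.886 by limma), beside 0.509% of genes called. Ly-6B+ and Ly-6B- cells differed by 0.91 (95% interval 0.31 to 1.50, adjusted p = 0.0484 by limma), which is under the fold minimum, beside 3.94% of genes called. Without Ly-6B+ replicate 3 that difference was 1.39 (adjusted p = 0.000109 by limma). Without Ly-6B+ replicate 1 it was 0.58 (adjusted p = 0.273), and without Ly-6B+ replicate 2 it was 0.75 (adjusted p = 0.180). Without Ly-6B- replicate 1, 2 or 3 it was 0.86, 0.87 or 0.99 (adjusted p = 0.121, 0.117 and 0.0711). The adjusted p was also over 0.05 under quantile normalization (0.0553) and with only the arrays compared (0.454), among other settings.

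Over the 5 zymosan groups together, limma's F was 281. with an adjusted p of 1.79e-14, beside 61.9% of genes tested with an adjusted p under 0.05. As a description with no test, the 4 h cells differed from bone marrow by -0.06 on the log2(signal + 15) scale, the 18 h cells by -3.84 and the 72 h cells by -7.82. Ly-6B+ macrophages of 168 h differed from bone marrow by -6.72, the Ly-6B- ones by -7.63 and resident macrophages by -7.94.

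The sorted groups were checked against marker genes. Monocyte markers were present in every group, whether Met was high or at the floor. Of 13 measured monocyte genes, 0 were under the table's median in all bone marrow arrays, and their summed signal was 180109.8 to 188221 in bone marrow, 227499 to 237957 at 4 h and 173505 to 195291 at 18 h. The sum was 129705 to 133401 at 72 h and 138356 to 149960.0 in resident cells. At 168 h it was 139559.8 to 166718 in Ly-6B+ and 126628 to 142719 in Ly-6B- cells. In resident cells only Cx3cr1 was under the median in all arrays. Csf1r, the receptor that sustains monocytes and macrophages, averaged 26568 at 4 h and 24498 in bone marrow. Ly6c2, a further monocyte marker, had no probe set of its own.

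Genes listed as markers of neutrophils, progenitors and dividing cells were also high in the bone marrow arrays. Whether the sorted monocytes or other cells carried them was not tested. The 13 measured neutrophil genes summed to 70458 to 212418 there, 20547 to 21800.5 at 4 h and 3825 to 5104 at 18 h. The 12 progenitor genes summed to 35677 to 98867 in bone marrow, 1374 to 1877 at 4 h and 1803 to 2132 at 18 h, and the 11 genes of dividing cells to 77401 to 95501, 905 to 1229 and 2528 to 3349 in the same groups. The 9 measured B or plasma cell genes summed to 23286 to 28182 in bone marrow, 22948 to 23737 at 4 h and 17922 to 19965 at 18 h. Among them Ighm averaged 13105 in bone marrow and 1917 at 4 h, and Xbp1 averaged 11884 and 18505. Within bone marrow, the highest array was 6.75 times the lowest for S100a9 and 1.98 times for S100a8, both from the neutrophil list. The ratio was 2.82 for Mpo, the myeloperoxidase of progenitors, 1.34 for Mki67, a marker of dividing cells, and 1.17 for Met. At 4 h S100a9 averaged 133, against 17827 in bone marrow, and S100a8 averaged 2855, against 31508. S100a8 and S100a9 do not stand for the whole neutrophil list, whose sum at 4 h was 20547 or more. Of its 13 measured genes only Stfa2l1 was under the table's median in all 4 h arrays, as in bone marrow. Mpo averaged 81.0 at 4 h, against 21830.2 in bone marrow, Mki67 averaged 221, against 20652, and Met averaged 4042, against 4213.

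Of 13 measured mesothelial, stromal and endothelial genes, 9 were under the table's median in all bone marrow arrays, and 11 in all 4 h arrays and in all 18 h arrays. Their sums were 524 to 704 in bone marrow, 399.5 to 553 at 4 h and 387 to 465 at 18 h. Msln and Upk3b, which mark mesothelium, were under the median in all arrays of these groups.

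Resident peritoneal macrophage genes ran the other way. The 12 measured summed to 5007 to 6390.1 in bone marrow, 10786 to 18351 at 4 h, 54328 to 63329 at 18 h and 216562 to 269842 at 72 h, and 8 of them, among them Timd4 and Gata6, were under the median in all bone marrow arrays. Their part in the change of Met was not tested. In sorted cells measured in bulk, fewer cells with Met and less Met RNA in each cell cannot be told apart. The Gapdh 3′ to 5′ ratio, a measure of RNA integrity, was 2.47 to 2.70 at 4 h, 1.64 to 2.12 at 18 h and 1.98 to 2.46 at 72 h, and its part in these differences was not tested.

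**Figure D3:**
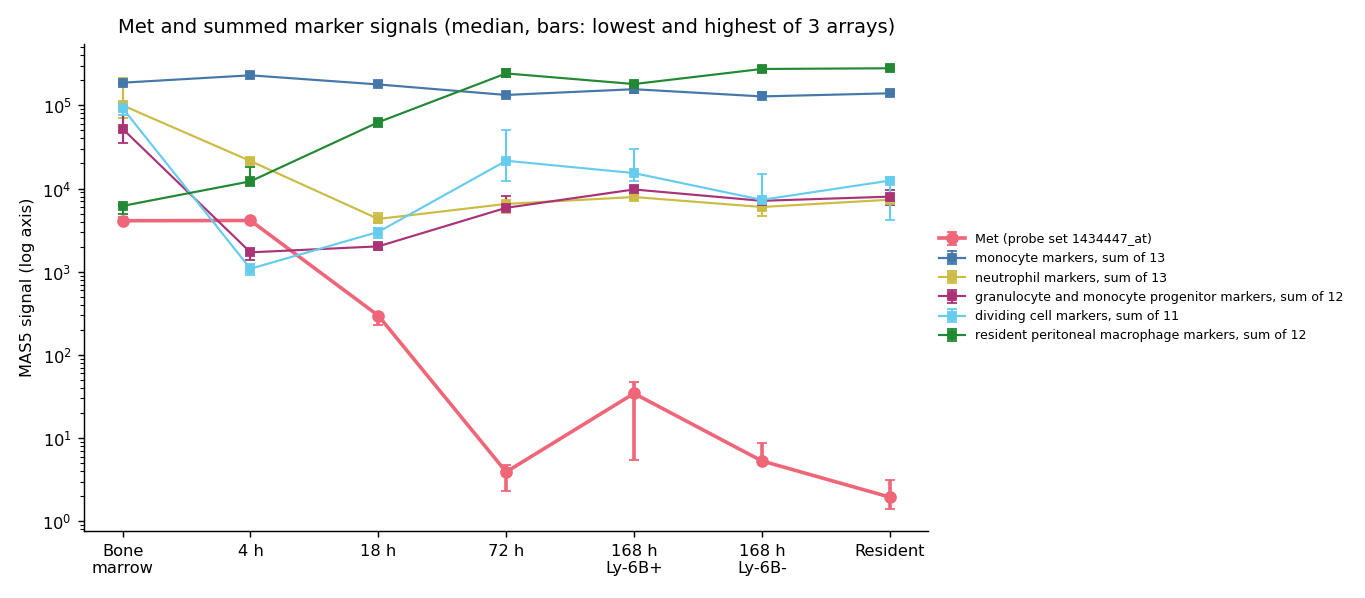
Median signal of Met and of 5 summed marker lists in the 7 groups, on a log axis, with bars from the lowest to the highest of 3 arrays. The Met bars of bone marrow and 4 h overlap while the neutrophil, progenitor and dividing cell sums fall, and the resident macrophage sum climbs to 216562 or more at 72 h.

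The ligands were examined next. Hgf had 221, 142 and 153 at 4 h, against 249, 273 and 348 in bone marrow, and the 18 h arrays had 191, 247 and 237. It averaged 222 ± 44.6 at 72 h and 249 ± 60.5 in resident cells (SD, n = 3 each). It passed no call in any of the 5 comparisons, and the 4 h and bone marrow groups, which did not overlap, differed by -0.71 on the log2 scale (limma adjusted p = 0.0163, under the fold minimum). Mst1, which encodes macrophage-stimulating protein, the ligand of the related receptor Mst1r, was too dim to be tested, with group means of 27.6 to 52.1.

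Mst1r, the closest relative of Met among receptor tyrosine kinases and known from resident peritoneal macrophages, moved in the opposite direction. Its signals were 1538, 1926 and 1505 in resident macrophages, against 25.2, 143 and 120.2 in bone marrow. The 4 h arrays gave 96.9, 168 and 98.6, the 18 h arrays 304, 256 and 376, and the 72 h arrays 1526, 1136 and 1236. Every group from 18 h on lay above both groups in which Met was high.

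The change in Mst1r was 4.13 between resident and bone marrow cells (limma adjusted p = 1.89e-09), 1.29 between 18 h and 4 h (0.00366) and 2.01 between 72 h and 18 h (8.10e-05), all on the log2 scale. The call at 18 h was lost when arrays were scaled to a common median. Ly-6B+ and Ly-6B- cells at 168 h had 1299 ± 125 and 1792 ± 40.3 (SD, n = 3 each) and did not pass the test (adjusted p = 0.466).

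Of a list of 76 other genes of the pathway, 68 had a probe set and 60 passed the filter and were tested, in 5 comparisons that share groups of arrays. Between resident and bone marrow cells 13 rose and 2 fell (25.0% of those tested), beside 23.1% of all genes, and the median log2 change was 0.10 in the list and 0.05 over all genes. Between 4 h and bone marrow 12 rose and 5 fell (28.3%), beside 22.0% of all genes, with medians of 0.18 and -0.14. Between 18 h and 4 h 6 rose and 7 fell (21.7%), beside 15.5%, with medians of 0.03 and 0.14.

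Between 72 h and 18 h 5 rose and 3 fell (13.3%), beside 12.5%, with medians of -0.15 and 0.03. Between Ly-6B+ and Ly-6B- cells at 168 h 1 rose and 2 fell (5.00%), beside 3.94%, with medians of -0.01 and -0.02. These shares lay near those of all genes, and nothing is read from them about the pathway as a whole. Scaling to a common array median moved the split to 20 higher and 3 lower for 4 h against bone marrow and to 3 higher and 14 lower for 18 h against 4 h. The array medians themselves differed by -0.36 and 0.29 on the log2 scale in those comparisons.

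Among proteases that activate the ligand, Hpn (hepsin) and St14 (matriptase) are both anchored in the cell membrane. Both were higher in resident cells than in bone marrow and at 72 h than at 18 h, with Met at the floor in resident and 72 h cells. In Ly-6B+ cells at 168 h, where Met was also under the table's median, both were lower than in Ly-6B- cells. Hpn had 607, 479 and 577 in resident cells, against 12.8, 21.5 and 18.3 in bone marrow, a log2 change of 4.13. It rose by 2.80 at 72 h against 18 h, and was lower by 2.03 in Ly-6B+ than in Ly-6B- cells at 168 h. St14 had 429.6, 468 and 436 in resident cells, against 156, 102 and 134 in bone marrow, a log2 change of 1.68. It rose by 2.20 at 72 h against 18 h, where the arrays had 428, 593 and 574 against 85.2, 87.3 and 143. In Ly-6B+ cells at 168 h it averaged 111 ± 12.1, against 537 ± 175 in Ly-6B- cells (SD, n = 3 each; log2 change -2.09).

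Spint1 and Spint2 encode membrane inhibitors of these proteases. Spint1 had 242, 219 and 177 at 4 h, against 27.8, 54.0 and 84.0 in bone marrow, a rise of 1.77 on the log2 scale. At 18 h it had 59.6, 84.4 and 107, a change of -1.23 against 4 h, a call lost when 60 was added to the signals. Spint2 was scattered, with 6.94, 26.5 and 177 at 4 h, against 200.1, 76.6 and 667 in bone marrow, and its call (-2.09, limma adjusted p = 0.0116) was lost in 4 of 16 settings, among them leaving out bone marrow replicate 3 or 4 h replicate 1.

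Among partners of the receptor at the membrane, Sdc1, Itga6 and Nrp1 changed most. Sdc1, a heparan sulfate proteoglycan that binds hepatocyte growth factor, had 1685, 1498 and 1154 at 4 h, against 43.7, 30.9 and 46.4 in bone marrow (log2 change 4.72). At 18 h it had 225, 247 and 161 (change against 4 h -2.69), and at 72 h 51.3, 116 and 45.5 (change against 18 h -1.47). The call at 72 h was lost in the mean of its probe sets. Sdc1 therefore changed between bone marrow and 4 h, where the Met arrays overlapped. It was higher in Ly-6B+ than in Ly-6B- cells at 168 h by 1.77 on the log2 scale. That call was lost when 60 was added to the signals and in the mean of its probe sets.

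Itga6, a laminin-binding integrin subunit, had 23749, 24154 and 25346 in resident cells, against 682, 524 and 702 in bone marrow (log2 change 5.24). It had 217, 528 and 115 at 4 h, 1464, 1449.7 and 1103 at 18 h and 20216, 20836 and 21590.1 at 72 h, with changes of 2.40 and 3.96 over these steps. The fall at 4 h against bone marrow (-1.35) was lost without 4 h replicate 3. Nrp1, a co-receptor for several growth factors, had 1292, 1387 and 972 at 4 h, against 5268, 6694 and 5171 in bone marrow (log2 change -2.22), and 7794, 7535 and 8658 at 18 h (change against 4 h 2.71).

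Inside the cell, Gab1, the docking protein that the activated receptor recruits, was low in bone marrow and high everywhere else. It had 3999, 3124 and 4582 at 4 h, against 334, 179 and 165 in bone marrow, a log2 change of 4.07. In resident cells it had 1731, 1428 and 1736, a change of 2.83 against bone marrow. Gab1 passed no call between 18 h and 4 h (-0.77, limma adjusted p = 0.00407, under the fold minimum). Stat3, a transcription factor that the receptor can activate, had 2322, 2159 and 2304 at 18 h, against 6095, 6419.6 and 5889.9 at 4 h (log2 change -1.43). That call of Stat3 was lost in the mean of its probe sets. Of 14 cascade kinases 7 had a probe set of their own, and 0 were called in any of the 5 comparisons, where 3.94% to 23.1% of all genes were called. With 7 genes nothing is read from that count.

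Feedback inhibitors of receptor tyrosine kinases differed among themselves. Errfi1, best known as an inhibitor of the epidermal growth factor receptor, had 3817, 4494 and 5419.8 at 4 h, against 582, 577 and 717 in bone marrow (log2 change 2.83). It had 1175, 1366 and 1300.2 at 18 h (change against 4 h -1.81), and the change of -1.09 at 72 h against 18 h was lost without 72 h replicate 2. Spry1, an inhibitor of Ras signalling, fell by 1.70 in resident cells against bone marrow and by 1.48 at 4 h against bone marrow. Its arrays had 96.9, 135 and 118 in resident cells and 143, 138 and 131 at 4 h, against 416, 402 and 410.3 in bone marrow.

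Of 8 transcription factors linked to Met transcription in other settings, largely human tumour cells, Ets2 and Hif1a rose at 4 h. Ets2 had 13336, 12205 and 11497 at 4 h, against 1784, 2065 and 2752 in bone marrow (log2 change 2.50). Hif1a, a factor that responds to low oxygen, rose by 2.12 at 4 h against bone marrow and fell by 1.30 at 72 h against 18 h, with 6044, 5497 and 4559 against 13879, 14379 and 11328. Pax3 was called higher at 18 h (1.48, limma adjusted p = 0.0121) from group means of 63.8 ± 10.4 at 18 h and 13.2 ± 4.02 at 4 h (SD, n = 3 each), all near or under the table's median. In resident cells against bone marrow 3 of the 8 were called higher and 1 lower (50.0%), beside 23.1% of all genes. Those higher were Myc, kept in all 17 settings, Mitf, lost in 8 of 17, and Pax3, lost in 3 of 16. Ets1 was called lower in resident cells than in bone marrow (-2.32), and that call was lost without bone marrow replicate 3 or resident replicate 2. At 18 h against 4 h 2 were called higher and 1 lower (37.5%), beside 15.5% of all genes. Mitf and Pax3 were those called higher, and Ets2, after its rise at 4 h, was called lower. Each of these calls was lost in the mean of the gene's probe sets. With 8 genes nothing is read from these counts.

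Other receptor tyrosine kinases were set beside Met. Of 57 listed besides Met, 55 had a probe set and 30 were tested. Between resident and bone marrow cells 8 rose and 4 fell (40.0%), beside 23.1% of all genes, and the median change was 0.18, against 0.05 over all genes. Between 4 h and bone marrow 2 rose and 2 fell (13.3%), beside 22.0% of all genes. Between 18 h and 4 h 6 rose and 1 fell (23.3%), beside 15.5%, and between 72 h and 18 h 5 rose and 1 fell (6 of 30), beside 12.5%. Between Ly-6B+ and Ly-6B- cells at 168 h 1 rose and 3 fell (13.3%), beside 3.94%. The share of kinases called was thus below that of all genes at 4 h against bone marrow and above it in the other 4 comparisons, with 4 to 12 kinases behind each share. Leaving out 1 replicate moved the counts at 4 h against bone marrow to between 1 and 3 in each direction.

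Receptors with the largest rises were high in resident cells. Fgfr1, a fibroblast growth factor receptor, had 6094, 5182 and 3779 in resident cells, against 5.23, 21.7 and 8.60 in bone marrow (log2 change 7.57). It had 502, 542 and 379 at 18 h, against 51.9, 133 and 20.2 at 4 h (change 2.78), and 4678, 4321 and 4009 at 72 h (change against 18 h 3.17). Its call at 4 h against bone marrow was lost in 5 of 17 settings, among them leaving out 4 h replicate 2. From bone marrow through 4 h and 18 h to 72 h its group means ran in the opposite order to those of Met.

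Mertk, a receptor for apoptotic cells, had 4944, 3367 and 4543 in resident cells, against 72.6, 48.2 and 77.9 in bone marrow (log2 change 5.73). Its rise began at 4 h, with 459, 476 and 368 (change against bone marrow 2.48), where the Met arrays overlapped those of bone marrow, and it rose by 2.33 at 18 h against 4 h. Epha2, an ephrin receptor, rose by 4.38 in resident cells against bone marrow and by 2.37 at 18 h against 4 h. Ryk, a Wnt-binding receptor, had 491, 591 and 413 in resident cells, against 7.80, 3.69 and 4.45 in bone marrow, and rose by 3.94 at 72 h against 18 h. Epha4 rose by 3.43 at 72 h against 18 h. At 168 h Ryk (-2.81), Epha4 (-1.69) and Fgfr1 (-1.69) were lower, and Axl (1.28), a relative of Mertk, was higher in Ly-6B+ than in Ly-6B- cells. The call of Axl was lost in the mean of its probe sets, and that of Epha4 when 1 was added to the signals.

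The receptors called lower in resident cells were dim. The filter asked for 3 arrays above 80.6, and the bone marrow arrays of Flt1 and of Kit met it, the group where they are high. With the filter at the 75th percentile, 0 kinases were called lower in resident cells. Flt1, a receptor for vascular endothelial growth factor, had 5.72, 2.81 and 5.27 in resident cells, against 83.6, 141 and 113 in bone marrow (log2 change -2.68), and fell by 1.84 at 72 h against 18 h. Kit, the stem cell factor receptor, had 31.7, 27.6 and 27.4 in resident cells, against 232, 97.3 and 709.9 in bone marrow (log2 change -2.63), with bone marrow replicate 3 highest. Flt3, another receptor of progenitors, fell by 1.70 in resident cells against bone marrow and by 1.68 at 18 h against 4 h. The call in resident cells was lost in 3 of 16 settings, among them leaving out resident replicate 1 or 3. The call at 18 h was lost in 4 of 16 settings, among them leaving out 4 h replicate 3, 18 h replicate 1 or 18 h replicate 3. Fgfr4 (-1.17) lost its call in 6 of 16 settings. At 4 h against bone marrow Insr, the insulin receptor, fell by 1.61. Igf1r, its relative, fell by 1.08 in the same comparison, a call lost in 7 of 17 settings. Insr was not among the receptors lower in resident cells. It was called higher in resident cells than in bone marrow, at 18 h than at 4 h and at 72 h than at 18 h. Each call of Insr, the fall at 4 h included, was lost in the mean of its probe sets.

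**Figure D4:**
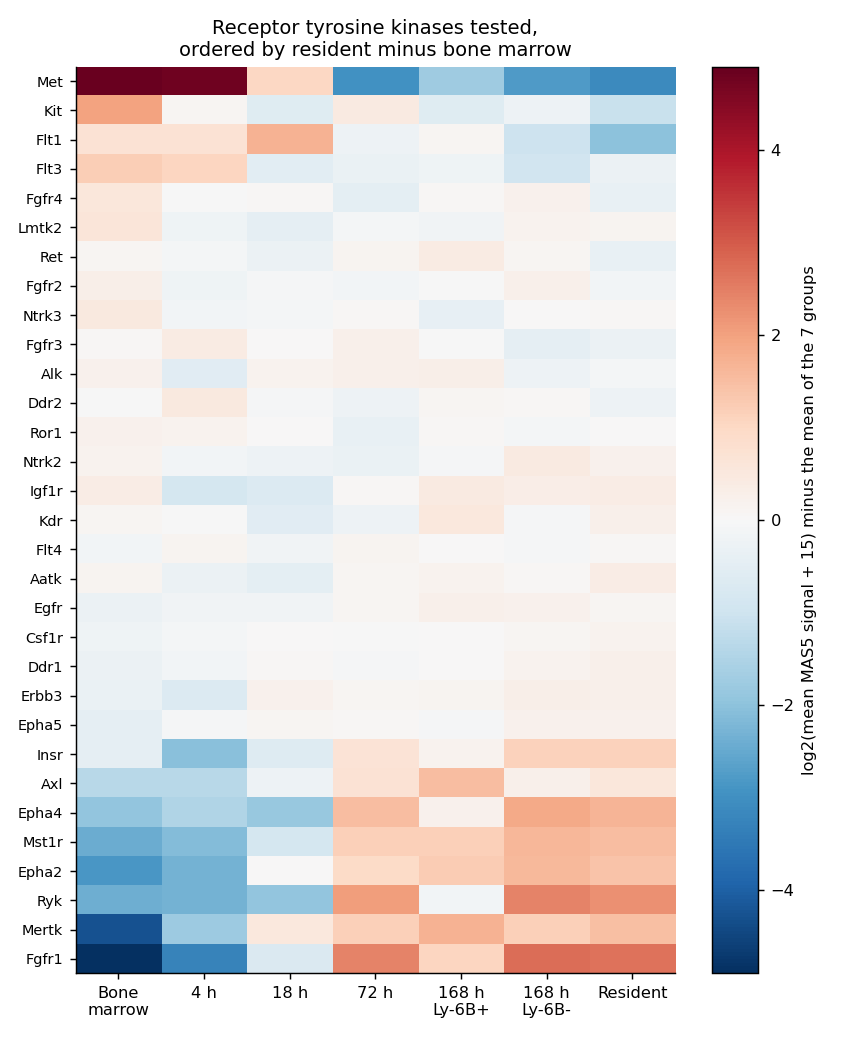
Colour shows, for Met and the 30 other receptor tyrosine kinases tested, log2(mean signal of 3 arrays + 15) of each of the 7 groups minus that gene's mean over the groups, ordered by resident minus bone marrow. Met stands at the top and Fgfr1 at the bottom. Their changes for resident against bone marrow in the fit, which averages the logs of single arrays, were -7.94 and 7.57.

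The nearest measured protein-coding genes on chromosome 6 did not follow 1 pattern. In chromosomal order they were Tfec, Tes, Cav2 and Cav1 before Met, and Capza2, St7, Wnt2 and Asz1 after it. Tfec, a transcription factor of myeloid cells, resembled Met most, with 391, 639 and 473 at 18 h against 4229.8, 3824 and 3784 at 4 h (log2 change -2.97, limma adjusted p = 7.15e-10). It did not pass the test at 72 h against 18 h (0.14, adjusted p = 0.662), where its means were 558 ± 166 and 501 ± 127 (SD, n = 3 each). Tes, a focal adhesion protein, fell by 1.82 at 18 h against 4 h, after a rise of 2.08 at 4 h against bone marrow.

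Cav1 and Cav2, the caveolins next to Met, moved the other way. Cav1 had 2232, 2243 and 2309 in resident cells, against 18.4, 28.4 and 53.1 in bone marrow (log2 change 5.62). It had 3338, 3121 and 5206 at 72 h, against 243, 115 and 154 at 18 h (4.42), and was lower by 3.51 in Ly-6B+ than in Ly-6B- cells at 168 h. Cav2 rose by 1.26 at 18 h against 4 h, a call lost with arrays scaled to a common median, and by 2.49 at 72 h against 18 h.

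On the other side, Capza2, an actin capping subunit, passed no call, with group means of 12623 to 21202. Wnt2, a secreted ligand, had 7462, 7041 and 7060.2 in resident cells, against 42.6, 8.26 and 7.34 in bone marrow (log2 change 7.86), and rose by 4.72 at 72 h against 18 h. Asz1, known from germ cells, rose by 3.82 in the same step. Over the 21 arrays, which share their scaling, Pearson's r with Met was 0.88 for Tfec, 0.75 for Tes, -0.92 for Cav2, -0.89 for Cav1, 0.70 for Capza2, -0.56 for St7, -0.92 for Wnt2 and -0.85 for Asz1.

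**Figure D5:**
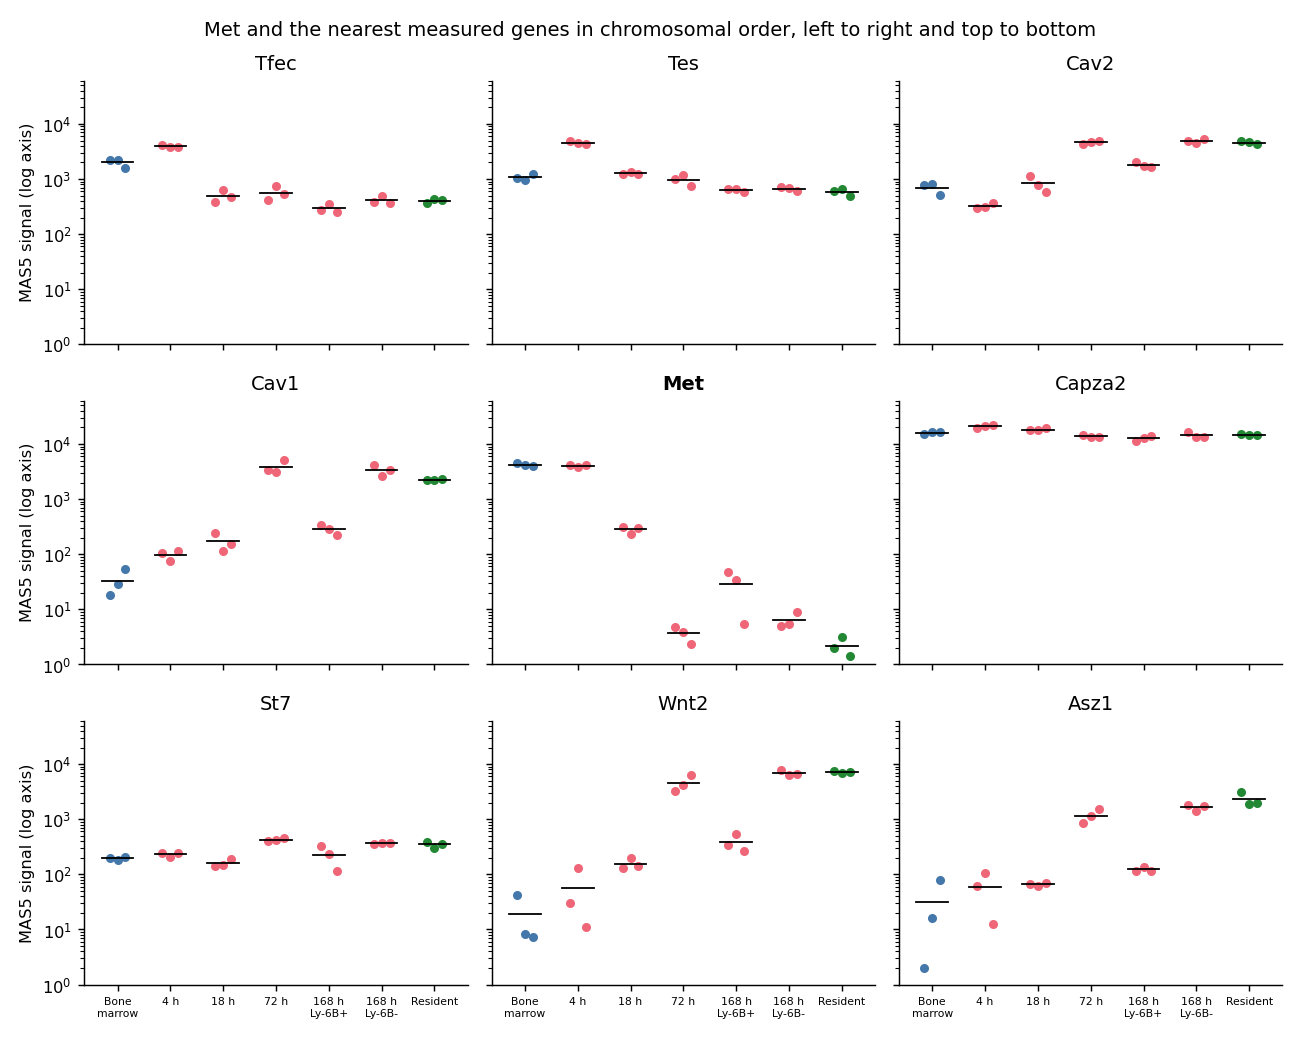
MAS5 signal (log axis) of Met and its 8 nearest measured genes in chromosomal order, with each of the 3 arrays as a point and the group mean as a bar. Tfec falls with Met between 4 h and 18 h, Capza2 stays between 11151 and 22433, and Cav1, Cav2, Wnt2 and Asz1 are high at 72 h, in Ly-6B- cells at 168 h and in resident cells.

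The 10 genes most like Met, by Pearson's r over the 21 arrays on log2(signal + 15), were Ndrg1 (0.974), Vps54 (0.971), AI839979 (0.970), Abcc4 (0.970), Sorl1 (0.969), Milr1 (0.969), Vav1 (0.968), Trem3 (0.967), Sema4d (0.966) and Utp23 (0.963). Of the 12168 other genes tested, 181 had an r of 0.9 or more, so that these 10 do not stand apart from many others. All were high in bone marrow and at 4 h, but their ranges were narrower. Ndrg1, a stress-responsive gene, averaged 4772 in bone marrow, 2948 at 4 h, 1149.8 at 18 h, 302 at 72 h and 155 in resident cells. Sorl1, a sorting receptor, averaged 4888, 4151, 1325, 368 and 282 in the same groups. Vav1, a guanine nucleotide exchange factor of blood cells, averaged 2923, 4148, 1822, 1090.5 and 1043. Trem3, a myeloid receptor, had 3129, 3008 and 7651 in bone marrow, a wider spread than that of Met.

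Over the whole series, the table held 45101 probe sets, and array medians ran from 67.3 to 93.0. No detection calls were used, so a signal near the floor is given as measured and not as absence of the transcript. The 3 arrays in each group limit the precision of every mean.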

How the data were processed

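RNA (100 ng, amplified and labelled in 2 cycles per the labels) from 21 samples was hybridised to Affymetrix mouse arrays. The deposited values are MAS5 signal intensities (linear), which the authors computed in Affymetrix Expression Console 1.2, per the submitters' processing notes. Every array had a mean of 500.0 once the outer 2% at each end were trimmed. Background settings are not given in the sources used here. All 21 columns matched a sample.

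Of 45101 probe sets, 34958 had 1 gene symbol, 932 several and 9211 none listed; only the first kind was used. Each gene took its probe set of highest mean over all arrays. Signals were taken as log2(signal + 15), where 15 is the 20th percentile of the table, rounded. The 12169 genes above 80.6, the table's median, in at least 3 arrays were tested in R 4.3.3 with limma 3.58.1 (lmFit, eBayes with a trend) over all 7 groups, with 14 residual degrees of freedom and 2-sided tests. The fit was tested on simulated data for 18 h against 4 h with 12169 genes, where 60 of 67 genes changed by 2 on the log2 scale were called.

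Met, the gene lists and the markers were chosen with earlier results of these data known. Named pathway and kinase genes are the 4 called members with the largest change in each direction of a comparison, besides Hgf, Mst1, Mst1r, the chromosomal neighbours, the 10 genes most like Met and abundant markers; further calls of these genes, and single markers such as Csf1r, were added after values were seen. Alternatives were other values added before the logarithm (1 and 60), quantile normalization, a common array median, other filters, averaging all probe sets of a gene, the dim Met probe set, only the arrays compared, a replicate block and each replicate left out. Replicate 3 of bone marrow was also left out together with replicate 2 of 4 h and of 72 h, an alternative added after seeing the data. Whether replicate numbers pair samples was checked by the correlation of deviations from group means. It was over 0.1 in all 3 pairs (0.30, 0.28 and 0.18) for Ly-6B+ and Ly-6B- cells at 168 h alone.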

Additional observations from a re-analysis of the deposited data

How the results depend on the processing

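Of 484 alternative values of the main results, 420 were labelled as kept, by a rule that differed with the kind of value. Tests kept their direction and their side of the threshold. Described differences from bone marrow moved by less than the replicate spread. Counts, most of them of the gene lists, stayed within a fixed ratio of the main count. Met at 18 h against 4 h kept its call in all 18 settings (-4.08 to -1.88). The replicate block changed no call of Met (-3.79 at 18 h against 4 h, -3.98 at 72 h against 18 h, 1.10 and 0.19 for Ly-6B+ and Ly-6B- cells at 168 h against 72 h, 0.91 between them) and no list count.

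The small rise in Ly-6B+ cells at 168 h against 72 h lost its call with 60 in place of 15 added to the signals (0.46), the mean of probe sets (0.52), only the arrays compared (1.10, adjusted p = 0.508) and 3 arrays left out (1.11, adjusted p = 0.0920), and ran from 0.77 to 1.58 with 1 replicate left out. Between Ly-6B+ and Ly-6B- cells that range was 0.58 to 1.39. In the dim probe set 1422990_at, 72 h against 18 h was -0.04, Ly-6B+ cells against 72 h -0.05 and Ly-6B+ against Ly-6B- cells -0.52. Its differences from bone marrow were -0.20 at 4 h, -2.08 at 18 h, -2.12 at 72 h, -2.17 and -1.65 in Ly-6B+ and Ly-6B- cells and -2.08 in resident cells. With 1 added, differences of 1434447_at from bone marrow were -9.85 at 72 h, -9.19 for Ly-6B- and -10.42 for resident cells. With 60 added they were -6.07 at 72 h, -5.61 for Ly-6B+, -6.01 for Ly-6B- and -6.10 for resident cells, by construction of the added value.

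Among pathway genes, the common array median gave 20 higher and 3 lower at 4 h against bone marrow, and 3 higher and 14 lower at 18 h against 4 h. The filter at the 75th percentile gave 0 lower in resident cells and 3 lower at 4 h, both against bone marrow. The mean of probe sets gave 1 lower at 72 h against 18 h and 0 higher in Ly-6B+ against Ly-6B- cells, as did 60 added (0). Leaving out 1 replicate gave 1 to 2 lower in resident cells, with 1 without resident replicate 2 or bone marrow replicate 3.

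Among receptor tyrosine kinases, 60 added gave 2 lower in resident cells, 1 higher and 1 lower at 4 h, both against bone marrow, and 0 lower at 18 h. At 4 h 1 was lower under quantile normalization and under the common median, 0 under the mean of probe sets, and 1 was higher under the mean of probe sets, only the arrays compared and 3 arrays left out. The filter at the 75th percentile gave 0 lower in resident cells, at 18 h and at 72 h. Ly-6B+ against Ly-6B- cells gave 2 higher with 1 added and under quantile normalization and 0 under the mean of probe sets. With 3 arrays left out 2 were lower at 72 h. Leaving out 1 replicate gave 2 to 4 lower in resident cells, 1 to 3 higher and 1 to 3 lower at 4 h, 0 to 1 lower at 18 h and 1 to 2 higher in Ly-6B+ cells.

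Of the 10 genes most like Met, 0 were shared under Spearman's rank correlation, 1 under the 7 group means and 6 with 60 added. Of 107 calls of single genes, 67 were kept in all settings, 40 were lost in some and 0 reversed. Causes of these changes were not tested. Signals near the floor limit every value under 15.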
